A study of Mus musculus with 12 samples.

Results

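The genes described here are the 35 aminoacyl-tRNA synthetase genes of the mouse that were listed by symbol and read from the count table of a bulk RNA-sequencing experiment on submandibular glands (SMGs), out of 56065 deposited gene identifiers. They comprise 19 genes for cytosolic enzymes and 16 genes for mitochondrial enzymes, listed whole by enzyme class with no threshold on their values, and all 35 passed the filter on low counts that left 17893 genes. The question was how each class behaved in glands of mice without Pou2f3, the transcription factor that tuft cells require. SMGs came from mice aged 8 weeks, with 3 mice in each of 4 groups: wild-type C57BL/6J females, C57BL/6J-Pou2f3 knockout females, wild-type C57BL/6J males and C57BL/6J-Pou2f3 knockout males. The knockout mice (C57BL/6J-Pou2f3-/-) carried a germline deletion, so the gene was missing from all tissues, and each library came from 1 mouse.

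Aminoacyl-tRNA synthetases attach each amino acid to its own tRNA, the step that supplies ribosomes with charged tRNAs. The cytosolic enzymes serve cytoplasmic ribosomes, while another set, also encoded in the nucleus, is imported into mitochondria and serves the ribosomes that translate mitochondrial DNA. Gars1 and Kars1 each encode both forms of their enzyme and were counted here as cytosolic. In exocrine glands, acinar and granular duct cells make large amounts of secreted protein, and several cytosolic synthetase genes are known targets of ATF4, the transcription factor of the amino acid response. Enzymes for aspartate were not analysed here.

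Library totals ranged from 47031917 to 67881902 estimated counts. Rn7s1, a small cytoplasmic RNA, took 27.0 to 34.5% of the counts in wild-type females, 31.3 to 39.1% in knockout females, 11.8 to 21.3% in males of the wild type and 20.5 to 26.9% in male knockouts, and the factors that scale the library sizes were 0.625 to 0.759, 0.902 to 1.03, 1.04 to 1.45 and 1.11 to 1.25 in the same order, so they did not overlap between the female groups. The acinar markers and the granular convoluted tubule markers, which define this gland, were both present in all groups, with summed levels of at least 3474 and 4728 CPM (a gene's counts relative to the scaled library size). Pou2f3 itself reached at most 2 counts in a wild-type female, 0 in the knockout females, at most 10 in a wild-type male and at most 3 in a knockout male, and a count of 0 allows up to 3, so the targeted gene was too low in whole glands to check the genotype labels. Of 8 listed tuft cell genes, Gnat3 and Il25 were at 0 in all 4 groups. The 8 genes summed to 17.3 to 26.0 CPM in wild-type females and 20.4 to 23.3 CPM in knockout females, so the sum did not separate these groups. In males the sums were 9.09 to 10.5 CPM in wild type and 9.52 to 11.7 CPM in knockout. Wild-type male replicate 3 stood apart in 18S ribosomal RNA, as described with Lars2. In bulk tissue, fewer cells of a type and less RNA per cell cannot be told apart.

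The sequences shown here are the promoter windows of the 5 members that hold the letters TGATGNAA (N is any base), the core of the amino acid response element that ATF4 binds with C/EBP partners. They are shown because the members that hold these letters all belonged to the cytosolic class. RefSeq windows on GRCm38.p6, running from 250 bases before to 50 bases after the start site, were found for 26 of the 35 members, 12 cytosolic and 14 mitochondrial. Each line reads 5′ to 3′ along the gene, and capitals mark the motif on either strand.
Aars1 (chr8:111033592-111033891, + strand): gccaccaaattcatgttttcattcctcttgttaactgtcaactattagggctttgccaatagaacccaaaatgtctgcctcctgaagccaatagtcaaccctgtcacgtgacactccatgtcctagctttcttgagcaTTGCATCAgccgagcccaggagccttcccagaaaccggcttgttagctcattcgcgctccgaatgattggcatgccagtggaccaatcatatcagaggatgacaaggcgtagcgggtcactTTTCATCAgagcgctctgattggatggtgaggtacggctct
Gars1 (chr6:55037751-55038050, + strand): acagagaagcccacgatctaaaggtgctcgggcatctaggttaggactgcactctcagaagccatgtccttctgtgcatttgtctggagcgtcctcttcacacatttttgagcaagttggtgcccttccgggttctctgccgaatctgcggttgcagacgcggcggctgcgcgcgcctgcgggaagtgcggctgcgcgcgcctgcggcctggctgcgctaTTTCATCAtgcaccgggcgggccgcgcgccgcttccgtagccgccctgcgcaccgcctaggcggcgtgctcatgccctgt
Iars1 (chr13:49681880-49682179, + strand): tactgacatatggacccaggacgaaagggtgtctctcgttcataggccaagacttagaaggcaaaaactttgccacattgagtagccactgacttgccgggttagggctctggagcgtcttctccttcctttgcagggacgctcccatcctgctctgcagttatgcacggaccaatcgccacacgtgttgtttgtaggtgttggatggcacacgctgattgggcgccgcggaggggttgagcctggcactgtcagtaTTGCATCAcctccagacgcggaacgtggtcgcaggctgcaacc
Tars1 (chr15:11399609-11399908, - strand): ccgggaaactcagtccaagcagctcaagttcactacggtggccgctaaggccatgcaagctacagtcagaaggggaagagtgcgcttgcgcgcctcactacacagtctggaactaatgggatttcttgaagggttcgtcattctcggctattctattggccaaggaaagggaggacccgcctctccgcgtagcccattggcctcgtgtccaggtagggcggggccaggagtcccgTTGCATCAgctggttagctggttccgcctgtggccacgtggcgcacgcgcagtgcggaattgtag
Yars1 (chr4:129189653-129189952, + strand): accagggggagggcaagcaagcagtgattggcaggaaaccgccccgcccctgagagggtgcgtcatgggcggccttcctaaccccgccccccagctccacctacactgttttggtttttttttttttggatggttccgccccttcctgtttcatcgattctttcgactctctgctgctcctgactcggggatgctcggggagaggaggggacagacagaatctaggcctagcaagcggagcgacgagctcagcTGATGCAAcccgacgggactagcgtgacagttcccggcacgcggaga

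The motif began at base 139 and again at base 260 of the 300-base Aars1 window, at base 221 in Gars1, 258 in Iars1, 236 in Tars1 and 254 in Yars1. In Aars1, Gars1, Iars1 and Tars1 the letters lay on the strand opposite to the gene, and in Yars1 on the gene's own strand. The motif was therefore present in 5 of the 12 cytosolic windows and in 0 of the 14 mitochondrial windows, against 4.51% of the windows of all 27025 genes searched. It was not found in the windows of Eprs1, Farsa, Farsb, Kars1, Mars1, Qars1 or Sars1, and all of these but Farsa were also called lower in knockout females. No window was available for Cars1, Hars1, Lars1, Nars1, Rars1, Vars1 and Wars1, or for the mitochondrial Hars2 and Pars2. A relation of the motif to the fall in females was not tested. A match of letters is a description of the window and not a measured binding site.

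In females, the cytosolic class was lower in knockout SMGs and the mitochondrial class was not. Of the 19 cytosolic genes, 17 fell and 0 rose (edgeR quasi-likelihood test, Benjamini-Hochberg adjusted p under 0.05), with a median log2 fold change of −0.60 and a range of −0.99 to 0.12. Of the 16 mitochondrial genes, 0 fell and 2 rose, with a median of 0.13, or 0.14 without Lars2. These mitochondrial counts and the sign of this median changed with the processing, as given at the end. Among all 17893 genes tested, 19.3% were called lower and 17.6% higher, and the median was 0.03 (−0.08 over protein-coding genes). Abundant genes were called lower more often: among the 5163 coding genes within the range of mean levels of the cytosolic members, from 577 to 3578 normalized counts, 39.2% fell and the median was −0.19. Among the 8731 coding genes in the mitochondrial range, from 90.5 to 1885 normalized counts, 24.2% fell. The 3 knockout females all lay below the 3 wild-type females for 16 of the 19 cytosolic genes and 0 of the 16 mitochondrial genes, which held for 24.1% of all genes tested.

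**Figure D1:**
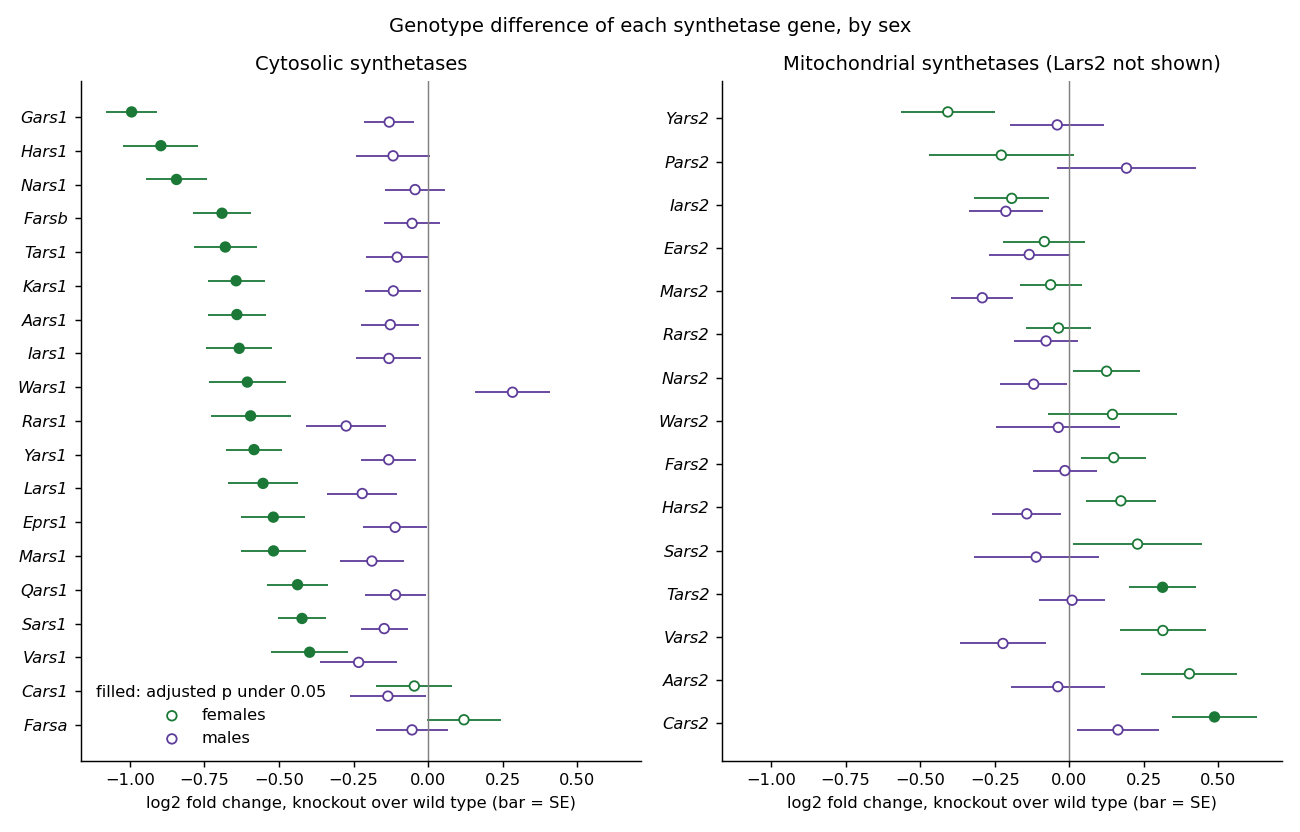
Log2 fold change of knockout over wild type (x axis, with its standard error) for each cytosolic gene (left) and mitochondrial gene (right, Lars2 left out), in females (green) and males (purple). Filled points have an adjusted p under 0.05: 17 cytosolic genes fell and 2 mitochondrial genes rose in females, and no point is filled in males.

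Gars1, which charges tRNAs with glycine, had the largest change of the class. Its normalized counts (counts scaled to a common library size) were 2542, 2324 and 2352 in wild-type females and 1232, 1216 and 1176 in knockout females, 50.2% of the wild-type mean. The knockout values lay close together and far below every wild-type female (log2 fold change −0.99 ± 0.08 SE, edgeR adjusted p = 3.9e-05). Males had 1786, 1963 and 1642 in wild-type glands and 1695, 1589 and 1643 in knockout glands. The male groups overlapped (log2 fold change −0.13 ± 0.08, edgeR adjusted p = 0.598), and all 6 males lay between the female groups.

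Nars1 charges tRNAs with asparagine and was the most abundant cytosolic member per kilobase of transcript, with a mean of 20.9 CPM per kilobase. It was at 4001, 3958 and 4170 normalized counts in wild-type females and at 2097, 2291 and 2371 in knockout females, without overlap (log2 fold change −0.84 ± 0.10, edgeR adjusted p = 2.2e-04). Wild-type males had 3340, 4059 and 3214 and knockout males 3478, 3236 and 3584, which overlapped.

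Hars1, the histidine enzyme, fell in females by 0.90 ± 0.13 on the log2 scale (edgeR adjusted p = 3.8e-04). Its normalized counts were 716, 707 and 767 in wild-type females and 441, 374 and 362 in knockout females, with no overlap. Male values were 528, 729 and 593 in wild type and 547, 562 and 596 in knockout, and the widest spread was within the wild-type males. Its mitochondrial counterpart Hars2 lies head to head with it on chromosome 18, with overlapping ends on opposite strands. The log2 fold change of Hars2 in females was 0.17 ± 0.12 (edgeR adjusted p = 0.274).

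Farsb and Farsa encode the beta and alpha subunits of 1 cytosolic enzyme for phenylalanine, and their values in females differed. Farsb was at 735, 651 and 785 normalized counts in wild-type females and at 431, 459 and 455 in knockout females, which did not overlap (log2 fold change −0.69 ± 0.10, edgeR adjusted p = 3.7e-04). Farsa was at 680, 677 and 645 in wild-type females and at 785, 593 and 801 in knockout females, which overlapped (log2 fold change 0.12 ± 0.12, edgeR adjusted p = 0.475). Within a library, Farsb counts per 100 Farsa counts were 108, 96.2 and 122 in wild-type females and 54.9, 77.4 and 56.8 in knockout females, so the ratio was lower in all 3 knockout females. Male Farsb values were 577, 634 and 589 in wild type and 593, 579 and 562 in knockout. In males the ratio was 74.2, 82.7 and 82.5 in wild type and 73.3, 80.4 and 87.1 in knockout, with overlap. This ratio was singled out after the values were seen and was not tested.

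Wars1 charges tRNAs with tryptophan. It was at 927, 1040 and 1029 normalized counts in wild-type females and at 669, 649 and 651 in knockout females, without overlap (log2 fold change −0.61 ± 0.13, edgeR adjusted p = 0.0034). In males the values were 982, 1221 and 924 in wild type and 1058, 1292 and 1455 in knockout, with overlap (log2 fold change 0.28 ± 0.13, edgeR adjusted p = 0.417). It was the only cytosolic member with a positive fold change in males.

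**Figure D2:**
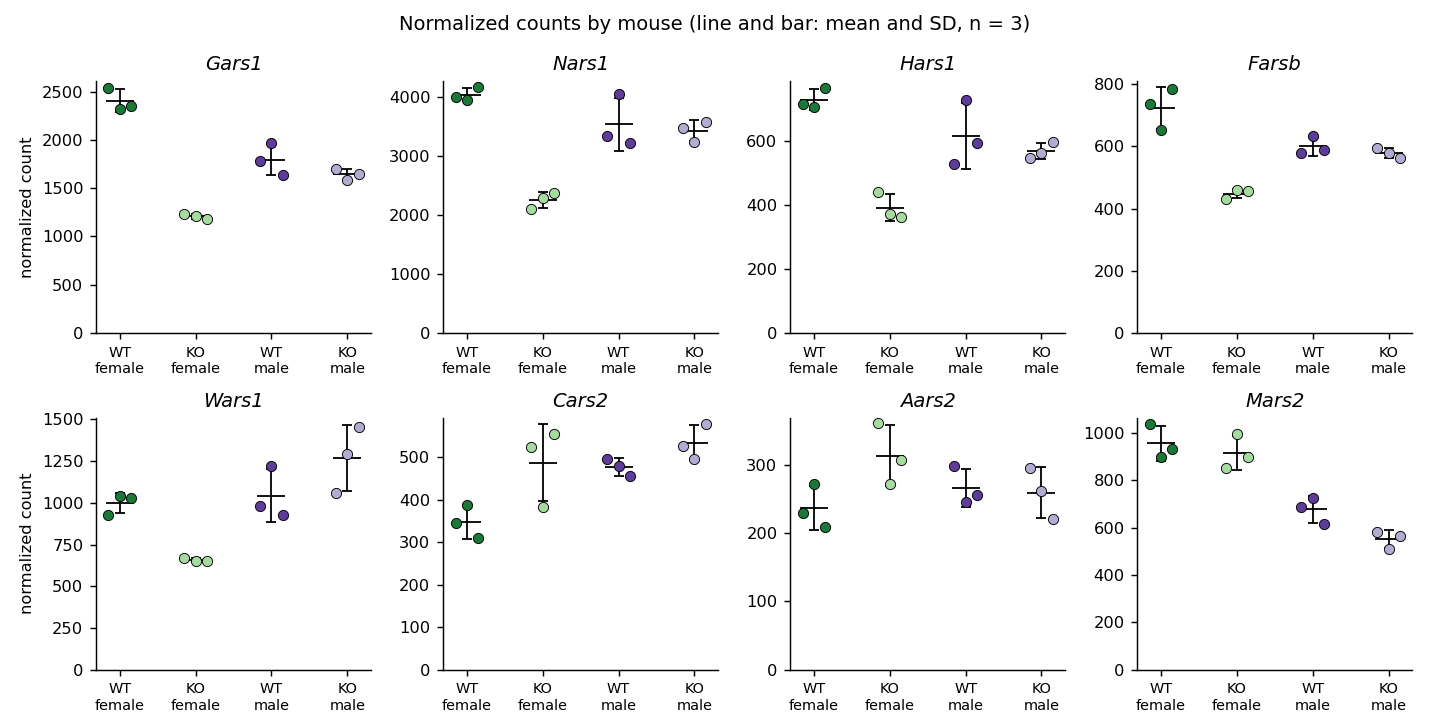
Normalized counts (y axis, from 0) of 5 cytosolic and 3 mitochondrial members in each of the 12 mice, by group, with the mean and SD of 3 mice as a line and bar. For Gars1, Nars1, Hars1, Farsb and Wars1 the 3 knockout females lie below the 3 wild-type females, and for Mars2 all 6 males lie below the females.

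The other cytosolic members that fell in females had log2 fold changes from −0.68 to −0.40. They were Tars1 (−0.68), Kars1 (−0.64), Aars1 (−0.64), Iars1 (−0.63), Rars1 (−0.60), Yars1 (−0.58), Lars1 (−0.55), Eprs1 (−0.52), Mars1 (−0.52), Qars1 (−0.44), Sars1 (−0.42) and Vars1 (−0.40), each named for the amino acid it charges, with Eprs1 carrying the glutamate and proline enzymes in 1 chain. Of these 12 genes, 11 had no overlap between the female groups, and the exception was Vars1, where knockout female replicate 1 (2741 normalized counts) was above wild-type female replicate 1 (2726). The Vars1 call was also lost without knockout female replicate 2, knockout female replicate 3 or wild-type female replicate 2. With the authors' gene and library factors as offsets, 13 of the 19 genes were called lower, the calls of Rars1, Vars1 and Yars1 were lost, and Qars1 turned to 0.22. Cars1, the cysteine enzyme, was at 968 ± 47.9 normalized counts in wild-type females and 939 ± 175 in knockout females (SD, n = 3), a log2 fold change of −0.05 (edgeR adjusted p = 0.809). Aars1 shares 23.0% of its main transcript with Exosc6 on the same strand, which was listed at 0, so its level is uncertain.

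The mitochondrial members were lower and more variable than the cytosolic ones. Leaving out Lars2, their mean levels ran from 0.483 CPM per kilobase for Wars2 to 5.81 for Iars2 (44.8% of whose main transcript lies under Rab3gap2 on the other strand), against 2.56 for Cars1 to 20.9 for Nars1 among the cytosolic genes, and the median coefficient of variation within groups was 9.61% against 7.80%. Cars2, the mitochondrial cysteine enzyme, had 344, 388 and 309 normalized counts in wild-type females and 524, 383 and 554 in knockout females. Knockout female replicate 2 lay within the wild-type range (log2 fold change 0.49 ± 0.14, edgeR adjusted p = 0.018). Tars2, the threonine enzyme, had 491, 554 and 455 in wild-type females and 696, 569 and 600 in knockout females, without overlap (log2 fold change 0.31 ± 0.11, edgeR adjusted p = 0.046). These were the 2 mitochondrial genes that rose. The Tars2 call held in only 2 of 21 alternative settings and was lost with DESeq2 and with any 1 of the 12 libraries left out, and the Cars2 call held in 15 of 21. In males Cars2 was at 495, 480 and 455 in wild type and at 526, 497 and 579 in knockout, where all 3 knockout values were higher without a call. Tars2 was at 582, 515 and 541 in wild-type males and at 522, 534 and 592 in male knockouts, with overlap. Cars2 shares 53.8% of its main transcript with Naxd on the other strand, which stranded libraries can separate only as far as the strand was used in counting.

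Aars2, the mitochondrial alanine enzyme, had 229, 272 and 209 normalized counts in wild-type females and 361, 273 and 307 in knockout females. All 3 knockout values were higher, the nearest by less than 1 count, and the difference did not pass the test (log2 fold change 0.40 ± 0.16, edgeR adjusted p = 0.067). Yars2, the tyrosine enzyme, had 356, 471 and 512 in wild-type females and 354, 293 and 362 in knockout females. The groups overlapped (log2 fold change −0.41 ± 0.16, edgeR adjusted p = 0.058), and 50.3% of its main transcript lies under Dnm1l on the other strand. Male groups overlapped for both: Aars2 was at 298, 246 and 256 in wild type and 296, 261 and 222 in knockout, and Yars2 in male knockouts was at 296, 295 and 237 beside the wild-type male values given with the sexes. Without wild-type female replicate 1, or with the authors' factors, 2 mitochondrial genes were called lower in females. The remaining mitochondrial members had female log2 fold changes of 0.31 (Vars2), 0.23 (Sars2), 0.17 (Hars2), 0.15 (Fars2), 0.14 (Wars2), 0.13 (Nars2), −0.04 (Rars2), −0.06 (Mars2), −0.08 (Ears2), −0.19 (Iars2) and −0.23 (Pars2), and none passed the test.

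Lars2, the mitochondrial leucine enzyme, had values unlike those of the rest of the class. Its normalized counts were 21952, 36174 and 37861 in wild-type females and 21386, 10710 and 69711 in knockout females. Wild-type males had 11082, 14965 and 140360, and knockout males had 25748, 53666 and 28258. The values spanned 13.1-fold with every group overlapping the others, while the other mitochondrial members stayed between 57.3 and 2309 in all libraries. Rn18s-rs5, a gene for 18S ribosomal RNA that the library preparation was meant to deplete, spanned 13.8-fold and was highest in the same library, wild-type male replicate 3. The number of Lars2 counts per 100 Rn18s-rs5 counts was 3.10 to 5.51, and their log2 values had a Pearson correlation of 0.976 over the 12 libraries, as a description. Whether reads of ribosomal RNA were counted as Lars2 was not tested, its level is uncertain, and Lars2 is left out of the class sums and amino acid pairs that follow.

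**Figure D3:**
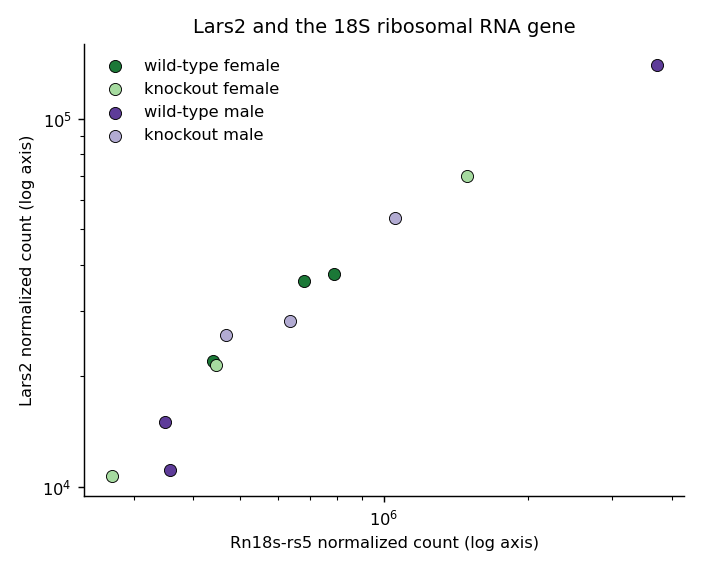
Normalized counts of Lars2 (y axis) against Rn18s-rs5 (x axis), both on log axes, with 1 point for each of the 12 mice, coloured by group. The points of all 4 groups lie close to 1 line, from 10710 Lars2 counts in knockout female replicate 2 to 140360 in wild-type male replicate 3.

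Set side by side within each mouse, the classes separated the female groups. The summed level of the 19 cytosolic genes was 661 ± 19.6 CPM in wild-type females and 443 ± 28.1 CPM in knockout females, and 590 ± 52.6 CPM and 543 ± 30.3 CPM in wild-type and knockout males (SD, n = 3). The sum of the 15 mitochondrial genes was 119 ± 6.42, 123 ± 6.38, 130 ± 2.77 and 120 ± 10.0 CPM in the same order. The ratio of the cytosolic to the mitochondrial sum was 5.63, 5.26 and 5.72 in wild-type females and 3.59, 3.56 and 3.71 in knockout females, so no knockout female reached a wild-type female. Wild-type males had 4.42, 4.92 and 4.26 and knockout males 4.34, 4.58 and 4.68, which overlapped each other and lay between the female groups. These ratios within a library do not depend on the library size, and they were not tested.

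**Figure D4:**
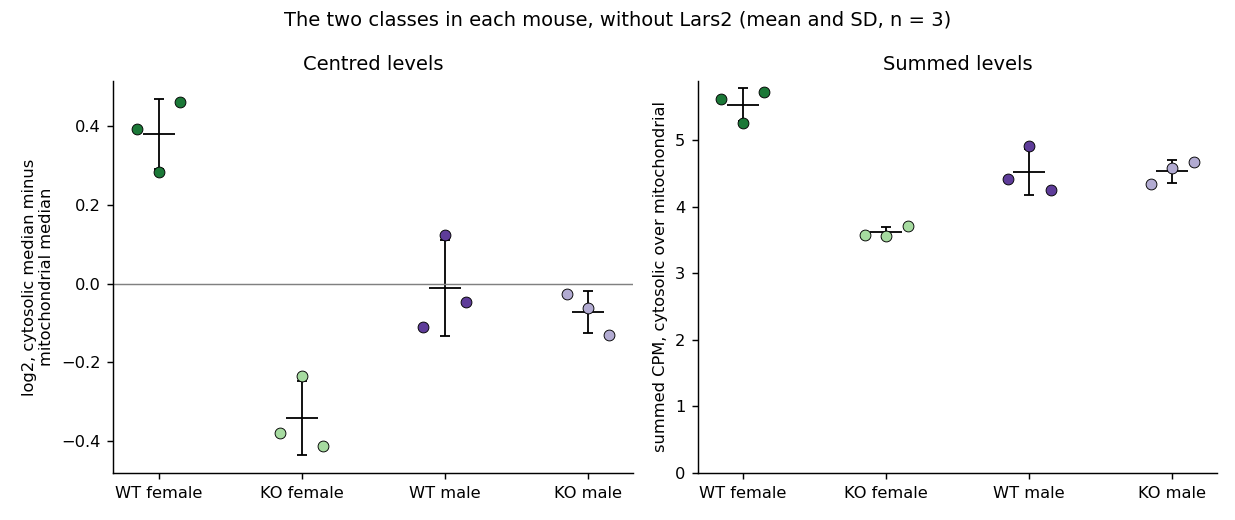
Balance of the 2 classes in each mouse, without Lars2: the difference between the class medians of log2 levels, each gene centred on its mean over the 12 libraries (left), and the ratio of summed CPM (right), with the mean and SD of 3 mice. Wild-type females lie highest and knockout females lowest in both panels, and both male groups lie between them.

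For 12 amino acids, leucine apart, 1 cytosolic and 1 mitochondrial gene could be set against each other within each library, per kilobase of main transcript. The log2 ratio of the cytosolic to the mitochondrial gene had a lower mean in knockout than in wild-type females for all 12, with a median difference of −0.67 and a range of −1.07 for histidine to −0.19 for tyrosine. For 11 of them the female groups did not overlap, and tyrosine was the exception. The asparagine ratio, for example, was 4.79, 4.65 and 4.92 in wild-type females and 3.75, 3.99 and 3.71 in knockout females. The cysteine ratio also fell without overlap, from 1.65, 1.41 and 1.88 to 0.96, 1.18 and 1.18, although Cars1 itself was not called. Cars2 was called higher in females, but in knockout female replicate 2 it lay within the wild-type range. In males 7 of the 12 differences were negative, with a median of −0.02 and a range of −0.29 to 0.31, and only the cysteine groups did not overlap. The cytosolic gene was the higher of the pair in all 12 libraries for 11 amino acids, and threonine was the exception, with values of −0.24, −0.02 and 0.22 in knockout females.

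**Figure D5:**
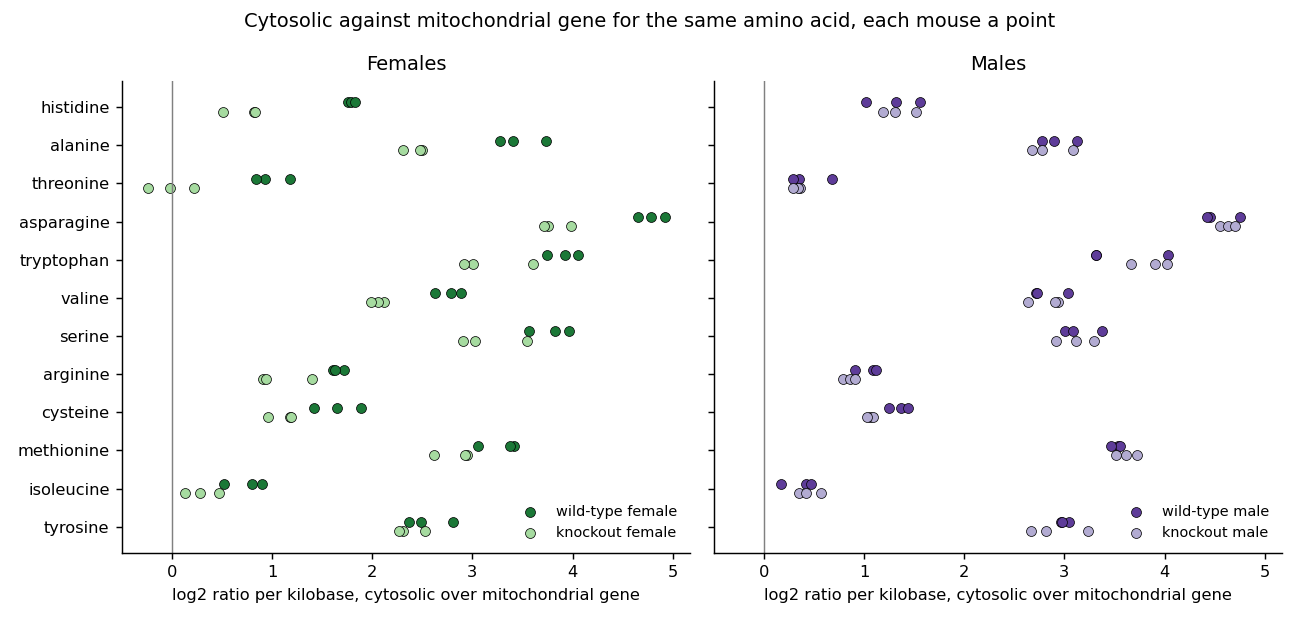
Log2 ratio per kilobase of the cytosolic over the mitochondrial gene (x axis) for 12 amino acids, 1 point per mouse, in females (left) and males (right). In females the knockout points lie to the left of the wild-type points for all amino acids but tyrosine, and in males the groups overlap for all but cysteine.

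In males, 0 of the 35 members were called in either direction, as were 0.235% of all genes tested. DESeq2 also called 0 members, and at an unadjusted p under 0.05 in the edgeR test there were 2, Wars1 and Mars2, against 2056 of the 17893 genes tested. The median log2 fold change was −0.13 for the cytosolic genes, 18 of which were below 0, and −0.09 for the mitochondrial genes. The median of all genes tested was −0.04. Mars2, the mitochondrial methionine enzyme, had the smallest p, with normalized counts of 689, 727 and 617 in the wild-type group and of 584, 509 and 567 in the knockout group. The male groups did not overlap for Mars2 (log2 fold change −0.29 ± 0.10, edgeR adjusted p = 0.283).

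The genotype difference itself was tested between the sexes as the interaction of sex and genotype. The change in females was lower than that in males for 10 of the 19 cytosolic genes and 0 of the 16 mitochondrial genes, and higher for 0 of both, where 12.4% of all genes were called lower and 13.4% higher (edgeR, Benjamini-Hochberg adjusted). Among the 5163 coding genes in the range of mean levels of the cytosolic members, 25.4% were called lower, with a median of −0.18. The class medians were −0.45 and 0.24, and the mitochondrial median was much smaller without knockout female replicate 3, as given with the processing. The smallest p belonged to Gars1 (−0.86 ± 0.12, edgeR adjusted p = 0.0027), Nars1 (−0.80 ± 0.14, adjusted p = 0.0045), Wars1 (−0.89 ± 0.18, adjusted p = 0.0064) and Farsb (−0.64 ± 0.13, adjusted p = 0.0073). Hars1, Tars1, Kars1, Aars1, Iars1 and Yars1 were the other 6. Over the libraries left out in turn the number called was 7 to 14, and the calls of Aars1, Iars1 and Yars1 were lost without wild-type male replicate 3. Vars2, the mitochondrial valine enzyme, had the smallest interaction p of its class (0.54 ± 0.20, edgeR adjusted p = 0.068).

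Between the sexes in wild type, which uses the same wild-type females, 5 cytosolic genes were lower in males and 0 higher, with a median of −0.21. Among all genes 16% were called lower and 20.5% higher. Those 5 were Gars1 (−0.42), Tars1 (−0.41), Aars1 (−0.37), Lars1 (−0.34) and Farsb (−0.27). Without wild-type male replicate 1, 2 or 3 the number was 3, 9 and 2, so the number moved with single mice, and with upper-quartile scaling it was 13. Of the mitochondrial genes, Mars2 and Yars2 were lower in males, and Cars2 (0.46), Fars2 (0.45) and Rars2 (0.30) were higher, with a class median of 0.22. Mars2 was at 1039, 897 and 934 normalized counts in wild-type females and all 3 wild-type males lay below these values (log2 fold change −0.50 ± 0.10, edgeR adjusted p = 0.0024). Yars2 was at 272, 315 and 264 in wild-type males, below all wild-type females (−0.65 ± 0.16, edgeR adjusted p = 0.0059). Fars2, the phenylalanine enzyme, was at 361, 403 and 392 in wild-type females and 519, 511 and 550 in wild-type males, without overlap (0.45 ± 0.11, edgeR adjusted p = 0.0055). The Rars2 call held in only 4 of 21 alternative settings. With the authors' factors 0 mitochondrial genes were called higher, and the Mars2 call was lost at −0.15. The number of mitochondrial genes called higher was 1 without wild-type female replicate 1, wild-type female replicate 3 or wild-type male replicate 1. Of 6 granular convoluted tubule markers 5 were higher in wild-type males and 1 lower (median 5.80). Lower in males were 5 of 8 acinar, 4 of 6 macrophage and 4 of 4 adipocyte markers, and 0 of these were higher. Of 4 RNAs listed for RNA quality and nuclear RNA, Neat1 was higher (1.27) and 1 was lower, with log2 fold changes down to −1.73. The part of these shifts in the synthetase differences was not tested.

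Between the sexes in knockout mice, which uses the same knockout females, 10 cytosolic genes were higher in males and 0 lower, with a median of 0.26. Among all genes 23.2% were called higher and 20.3% lower. Wars1 had the largest difference (0.95 ± 0.13, edgeR adjusted p = 8.8e-05), followed by Nars1 (0.61), Hars1 (0.54), Qars1 (0.46), Gars1 (0.44), Iars1 (0.40), Farsb (0.37), Vars1 (0.36), Kars1 (0.32) and Yars1 (0.26). With upper-quartile scaling 5 of the class were called higher and with the authors' factors 4, where Vars1 and Yars1 turned below 0. Of the mitochondrial genes, Mars2 was lower in males, at 852, 995 and 901 normalized counts in knockout females against 584, 509 and 567 in knockout males (−0.73 ± 0.10, edgeR adjusted p = 1.3e-04). Vars2 was also lower (−0.39), and Fars2, at 450, 388 and 444 in females and 575, 480 and 508 in males, was higher (0.29 ± 0.11, edgeR adjusted p = 0.045), a direction that turned with the authors' factors. The Vars2 groups overlapped, and the calls of Vars2 and Fars2 each held in only 9 of 21 alternative settings. With single libraries left out, 1 or 2 mitochondrial genes were called lower and 0 to 4 higher, and with upper-quartile scaling 6 were called lower and 0 higher. For Mars2, 33.9% of the main transcript lies under Boll on the other strand. Of 6 granular convoluted tubule markers 5 were higher in knockout males and 1 lower (median 5.50). Higher in males were also 4 of 4 duct, 3 of 6 macrophage, 3 of 4 adipocyte and 3 of 4 blood markers, with 0 lower. Of 8 acinar markers 4 were lower and 0 higher. Of 4 RNAs listed for RNA quality and nuclear RNA, 1 was lower and 0 higher, with log2 fold changes from −0.80 to 0.18. The part of these shifts in the synthetase differences was not tested.

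Genes that work with the synthetases were counted as whole lists in the same fit, to be read against the 19.3% of all genes called lower and 17.6% called higher in females, and against 39.2% lower among abundant coding genes. These lists were chosen with earlier results known, so their direction is not independent support. The 7 synthetases of the multi-synthetase complex (Eprs1, Iars1, Kars1, Lars1, Mars1, Qars1 and Rars1), which bind each other on a scaffold, all fell in females, with a median of −0.55. Of the scaffold genes, Eef1e1 (−0.86) and Aimp2 (−0.64) fell and Aimp1 was at −0.25 (edgeR adjusted p = 0.134). Of the 5 genes for cytosolic elongation factors, which bring charged tRNAs to the ribosome or move them along, 4 fell with a list median of −0.71, led by Eef1g (−0.97) and Eef1a1 (−0.80). Of the 4 mitochondrial elongation factors, Tufm (−0.58) and Gfm1 (−0.45) fell, while Gfm2 (0.19) and Tsfm (−0.16) did not pass the test. Mitochondria make glutaminyl-tRNA through an amidotransferase and not a synthetase of its own: of its subunits Gatc fell (−0.77), Gatb and Qrsl1 were at 0.10 and 0.02 without a call, and Mtfmt, the formylase of the initiator tRNA, rose (0.91). In males 0 genes of any of these lists were called.

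Of 18 genes for tRNA maturation, 5 fell in females and 1 rose, with a list median of −0.24, and this share is not far from that of all genes. Those that fell were the splicing ligase Rtcb (−0.70), Hsd17b10 (−0.51), the tRNA exporter Xpot (−0.46), Clp1 (−0.46) and Trnt1 (−0.44), which adds the CCA end, and Trmu, a mitochondrial tRNA-modifying enzyme, rose (0.91). Of 6 genes for editing and peptidyl-tRNA hydrolysis, Prorsd1 (−0.82) and Ptrh2 (−0.73) fell, and the list median was −0.46. The amino acid response list holds 20 known ATF4 target or partner genes other than synthetases, of which 15 fell in females and 0 rose, with a median of −0.73. Among them were the transporter Slc7a5, at 4780 normalized counts in wild-type and 1660 in knockout females (−1.53), the serine synthesis enzyme Psat1 at 1343 and 388 (−1.79), asparagine synthetase (Asns) at 9603 and 4643 (−1.05) and Atf4 itself at 4121 and 2947 (−0.48). Ddit3, Nupr1, Sesn2, Slc7a11 and Stc2 did not pass the test. The interaction was called lower for 11 of the 20 and higher for 0 (12.4% and 13.4% of all genes), and 0 were called in males. Of the same 20, 12 were lower in wild-type males than in wild-type females (16% of all genes) and Sesn2 was higher (0.55). Between the knockout sexes 7 were higher in males and 3 lower, where 23.2% of all genes were called higher and 20.3% lower.

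Some markers of other cell types were also called between the female groups. Their counts are to be read against the 19.3% of all genes called lower and 17.6% called higher in females. Among abundant coding genes 39.2% were called lower, and in the interaction 12.4% of all genes were called lower and 13.4% higher. Of 8 acinar markers 3 fell in females, with summed levels of 9462 to 17330 CPM in wild-type and 6423 to 11633 CPM in knockout females, and 2 of 6 granular convoluted tubule markers rose. Of 4 duct markers Krt8 fell (−0.45). Only 3 of the 8 tuft cell markers passed the low-count filter. Of these, 1 fell and 1 rose in females, with log2 fold changes from −1.65 to 2.06, and the interaction was called lower for 1 and higher for 0. Of 4 RNAs listed for RNA quality and nuclear RNA, the nuclear RNAs Malat1 and Neat1 rose in females, from 265490 to 454883 and from 13459 to 39518 normalized counts (0.78 and 1.55), and Rn7s1 and Rn7sk were at −0.33 and −0.11 without a call. The interaction was called higher for Neat1 (1.62, edgeR adjusted p = 0.036), and called lower for 4 of 4 adipocyte markers (median −8.52), 3 of 6 macrophage markers (median −1.34) and 2 of 4 blood markers (median −3.58). Of 6 macrophage markers 3 fell (68.1 to 158 CPM in wild-type and 55.2 to 84.2 CPM in knockout females). Of 4 adipocyte markers 2 fell, with sums of 3.73 to 78.1 CPM in wild-type females, 2.51 to 6.56 CPM in knockout females, 1.51 to 1.70 CPM in males of the wild type and 3.73 to 57.0 CPM in male knockouts. The part of these shifts in the fall of the cytosolic synthetases, and in their interaction of sex and genotype, was not tested. With any 1 of the 12 libraries left out, 16 or 17 of the 19 cytosolic genes were still called lower in females.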

How the data were processed

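SMG RNA was sequenced from 12 mice, 3 in each of 4 groups taken from the deposited labels. The labels name polyadenylated RNA, while the methods describe stranded, ribosomal RNA-depleted libraries. The authors quantified reads with Salmon 1.10.1 against Gencode M35 transcripts (GRCm39) and deposited estimated counts per gene; these were rounded to whole counts here. The authors also deposited a normalized signal, in which each gene's counts in a library were divided by their own factor, whose making is not given in the sources used here; it entered only 1 alternative. Names, positions and lengths of main transcripts came from Gencode M39, which holds 55563 of the 56065 identifiers, and promoter windows from RefSeq (GRCm38.p6), matched by symbol and then by synonym.

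All 12 libraries were fitted together with edgeR 4.0.16 (R 4.3.3; filterByExpr, TMM normalization, 1 mean per group, quasi-likelihood F-test), and p-values were adjusted by Benjamini-Hochberg over 17893 genes for each of 5 contrasts, with calls at an adjusted p under 0.05. The script was tested on simulated data. Normalized counts are counts divided by effective library size and rescaled. CPM per kilobase used the length of the main transcript. A count of 0 allows 3 counts, or 0.0442 to 0.0638 CPM, which covers counting error only. Replicates were separate mice.

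The members and lists were chosen with earlier results of these data known. Values in each library are given for the 4 genes of each class with the smallest p in the female contrast, the 4 with the smallest p in the interaction and in wild-type males against females, and those called against the majority of their class; Farsa and Lars2 were added after their values were seen. Classes, lists and pairs were described by counts and medians, without a test. Alternatives were other normalizations (RLE, upper quartile, the 20 most abundant genes left out of library sizes, the authors' factors), other filters (none, or at least 10 counts in every library), fits of the compared groups alone, a replicate block, DESeq2 1.42.0, and each library left out in turn. The interferon response list is not reported here.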

Additional observations from a re-analysis of the deposited data

Results flagged for a closer look

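For 10 cytosolic members the genotype difference in females differed from that in males by the interaction test (edgeR, Benjamini-Hochberg adjusted p under 0.05), and each is given as the female minus the male log2 fold change. The differences were −0.89 for Wars1, −0.86 for Gars1, −0.80 for Nars1, −0.78 for Hars1, −0.64 for Farsb, −0.58 for Tars1, −0.53 for Kars1, −0.51 for Aars1, −0.50 for Iars1 and −0.45 for Yars1. Of these calls, 6 held in every alternative and every fit with 1 library left out, and those of Aars1, Iars1, Tars1 and Yars1 were lost in at least 1 of them. No cause was tested.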

How the results depend on the processing

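The fall of the cytosolic class in females was called for 13 to 17 of 19 genes under the alternatives and for 16 to 17 with 1 library left out, and its median stayed between −0.67 and −0.49. Of the 19 members called in females, 13 kept their call in every setting. In the mitochondrial class in females, 1 gene was called lower with the 20 most abundant genes left out of library sizes and with DESeq2, 2 with the authors' factors, and 0 to 2 with 1 library left out. The number called higher was 1 with RLE normalization, with the 20 most abundant genes left out, without a filter and with DESeq2, 4 with upper-quartile normalization, 0 with only the groups compared in the fit, and 0 to 1 with 1 library left out; the class median ran from −0.02 to 0.24. In the interaction, 1 mitochondrial gene was called lower with the authors' factors (0 to 1 with 1 library left out) and 1 higher with upper-quartile normalization or the authors' factors (0 to 1). Between the sexes in wild type, 13 cytosolic genes were called lower with upper-quartile normalization (2 to 9 with 1 library left out), 1 mitochondrial gene was called lower with the authors' factors, and 1 and 0 higher with these settings in that order (1 to 4). Between the sexes in knockout, 5 and 4 cytosolic genes were called higher with upper-quartile normalization and the authors' factors, with medians of 0.09 and 0.10. In the same contrast, 6 mitochondrial genes were called lower with upper-quartile normalization and 1 with the 20 most abundant genes left out, without a filter or with only the groups compared (1 to 2 with 1 library left out). There, 0 were called higher with RLE or upper-quartile normalization, the authors' factors, no filter or only the groups compared, 3 with the 20 most abundant genes left out and 2 with at least 10 counts in every library (0 to 4). With the authors' factors the direction turned for Qars1 in females (0.22) and for Vars1 (−0.12), Yars1 (−0.023) and Fars2 (−0.086) between knockout sexes. The median mitochondrial interaction was 0.06 without knockout female replicate 3. Upper-quartile normalization moved the median of all genes from 0.03 to 0.13 in females and from −0.02 to −0.18 between knockout sexes. The causes were not tested.

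The replicate numbers name mice and the labels do not pair them. Deviations of same-numbered females correlated at −0.11 to 0.05 and of males at −0.13 to 0.09. With a replicate block, 17 cytosolic genes were called lower and 1 mitochondrial gene higher in females, 10 cytosolic lower and 1 mitochondrial higher in the interaction, 4 cytosolic lower and 2 mitochondrial higher between wild-type sexes, and 9 cytosolic higher between knockout sexes. The 3 mice per group, the low mean levels of Pars2 (90.5), Wars2 (135) and Sars2 (139.9 normalized counts), and the uncertain Lars2 counts limit the precision for the mitochondrial class.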
